A study of Bos taurus with 33 samples.

Results

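Wnt ligands, their receptors, secreted inhibitors and the first intracellular steps of the pathway were followed across 33 arrays of heifer endometrium. The genes were chosen by symbol: every gene of the array annotation whose symbol starts with WNT, FZD, SFRP, LRP5, LRP6, DKK (DKK1 apart), TCF7, LEF, AXIN, DVL, CTNN, RSPO, LGR, WIF or KREMEN. This gave 30 genes of the 9155 named on the array, with 41 probe sets between them, and where a gene had several probe sets, as 10 did, the brightest on average was taken for it. The 30 were the ligands WNT2B, WNT6 and WNT11, the R-spondins RSPO1 and RSPO3, the Frizzled receptors FZD1, FZD3, FZD4 and FZD10, the co-receptor LRP5 and the R-spondin receptor LGR4. Secreted members were SFRP1, SFRP2, SFRP4, SFRP5, DKK3 and DKKL1, and KREMEN2 is a Dickkopf receptor of the membrane. Intracellular members were DVL1, DVL2, AXIN1, AXIN2, the catenin-named genes CTNNB1, CTNNA1, CTNNAL1, CTNNBIP1 and CTNNBL1, and the transcription factors LEF1, TCF7 and TCF7L2. No probe set carried WNT4, WNT5A, WNT7A, FZD6, FZD8, LRP6, WIF1 or LGR5 as its only symbol in the annotation used. These genes were therefore not analysed here.

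Each array held total RNA of 1 Bavarian Simmental heifer whose cycle had been synchronised with cloprostenol, and no ages were given. In the pregnancy experiment, heifers were inseminated on day 1 with semen of a common bull or sham-inseminated with sperm-free semen supernatant (cyclic), and intercaruncular endometrium of the ipsilateral horn was taken at slaughter on day 12 (5 pregnant, 5 cyclic), day 15 (3 and 3) or day 18 (4 and 4). In the biopsy experiment a lipid rod releasing human interferon alpha (IFNA, 3 heifers), the rod alone (placebo, 3) or phosphate-buffered saline (PBS, 3) was placed in the ipsilateral horn on day 14, and about 6 forceps biopsies per animal were taken on day 16. The piece of horn sampled was labelled distal on day 12, medial on day 15, and caudal on day 18 and in the biopsies, so day and horn position cannot be told apart.

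Wnt proteins bind a Frizzled receptor together with LRP5 or LRP6; Dishevelled (DVL) is then recruited, the Axin complex that marks beta-catenin (CTNNB1) for destruction is blocked, and beta-catenin enters the nucleus to act with LEF1 and the TCF factors. R-spondins bound to LGR receptors keep Frizzled and LRP on the cell surface by removing the ligases RNF43 and ZNRF3, while secreted Frizzled-related proteins (SFRP) hold Wnt ligands outside the cell. In the uterus the pathway is known for gland formation, for communication between epithelium and stroma, and for the response to the conceptus, which in cattle announces itself through a type I interferon of the trophoblast.

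Values are log2 array signals, every array having been shifted to the same median of 6.83; they are called levels below. A level belongs to its own probe set and is not compared between genes. Differences between groups are given on the log2 scale with their standard error (SE), a two-sided test in limma, and a p-value adjusted over all 24016 probe sets tested; a gene is said to be higher or lower where that adjusted p is under 0.05. Arrays fell into 4 sets with nearly identical distributions, the biopsies (median 6.64 before the shift) and days 12 (6.86), 15 (6.5) and 18 (7.25). Comparisons within a set do not depend on that, and comparisons between days do. The difference between the 3' and 5' GAPDH control probe sets, which grows as RNA fragments, averaged 2.54 (SD 0.93, range 1.03 to 3.87) in the 9 biopsies and 0.15 (SD 0.26) in the 24 slaughter samples. Among these it also separated day 12 (0.43, range 0.22 to 0.56) from day 15 (-0.09, -0.16 to -0.04) without overlap, and it was -0.01 (-0.1 to 0.14) on day 18. Over the 9 groups, the mean level of 11 epithelial markers was 8.92 to 9.39 and that of 10 stromal markers 10.81 to 11.72, above the middle of all probe sets (6.81), while 7 trophoblast markers averaged 4.62 to 5.03, near the lower quartile (4.97).

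On day 18 pregnant and cyclic endometrium differed in 4 Wnt genes, among them 3 receptors. Of the 30 genes, 4 (13.3%) passed the threshold, where 18.6% of all probe sets did. FZD10, LGR4 and CTNNAL1 were lower in pregnant animals (9.23% of all probe sets were lower) and FZD4 was higher (9.39% were higher). The median difference of the 30 genes was -0.03 and that of all probe sets -0.02.

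At the cell surface, FZD10, a Frizzled receptor with a restricted tissue pattern, had levels of 5.25, 5.5, 5.51 and 5.63 in the cyclic animals of day 18 and of 4.7, 5.1, 5.08 and 5.1 in the pregnant ones. The groups did not overlap, and pregnant heifer 1 lay below the other 3. The FZD10 probe set is dim, at percentile 32.2 of all probe sets by mean level. Its pregnant mean of 4.99 lay near the lower quartile of all probe sets (4.97). FZD10 was lower by -0.48 ± 0.119 (SE, n = 4 and 4; limma, adjusted p = 0.00649), a 1.39-fold difference, and leaving out any 1 of the 8 animals left the call in place with differences of -0.55 to -0.38.

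FZD4, the receptor through which norrin and several Wnt ligands act on vessels, was the gene that rose. Its levels were 7.31, 7.28, 7.13 and 7.07 in pregnant and 6.71, 6.55, 7.05 and 6.86 in cyclic animals, which did not overlap, although cyclic heifer 3 came close to the lowest pregnant one. The difference was 0.4 ± 0.121 (limma, adjusted p = 0.0219). The call was lost without cyclic heifer 1 or 2 or pregnant heifer 1 or 2, with differences of 0.32 to 0.49 over the 8 fits that left out 1 animal and an adjusted p of up to 0.0908. A second, dim FZD4 probe set gave -0.14 (adjusted p = 0.197).

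LGR4, a receptor of the R-spondins, was measured at 10.73, 10.86, 10.57 and 10.38 in cyclic and 10.43, 9.69, 10.38 and 10.13 in pregnant animals. The groups met at 10.38, and pregnant heifer 2 had the lowest level of all. LGR4 was lower by -0.48 ± 0.139 (limma, adjusted p = 0.0185). That call was lost without cyclic heifer 2 (-0.4, adjusted p = 0.0717), without pregnant heifer 2 (-0.32, 0.09), and in a fit on the 8 arrays of the day alone (-0.48, 0.0925). The gene's second probe set gave -0.68 ± 0.148 (adjusted p = 0.00246) with cyclic levels of 8.63, 8.86, 8.42 and 8.29 and pregnant levels of 8.15, 7.54, 8.07 and 7.74, which did not overlap; it kept its call without any 1 animal.

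Among the catenin-named genes only CTNNAL1, which encodes alpha-catulin, a relative of alpha-catenin, passed. Its levels were 9.41, 9.45, 9.44 and 9.19 in cyclic animals and 9.05, 9.1, 8.51 and 8.78 in pregnant ones. No pregnant animal reached the lowest cyclic one. CTNNAL1 was lower by -0.51 ± 0.116 (limma, adjusted p = 0.00316), with differences of -0.59 to -0.4 when each animal was left out, all still called, and its second probe set was lower by -0.77 ± 0.147 (adjusted p = 0.00077). Beta-catenin itself, CTNNB1, stood at 11.49 to 11.62 in cyclic and 11.49 to 11.61 in pregnant animals (-0.01 ± 0.088, 95% interval -0.19 to 0.17).

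**Figure D1:**
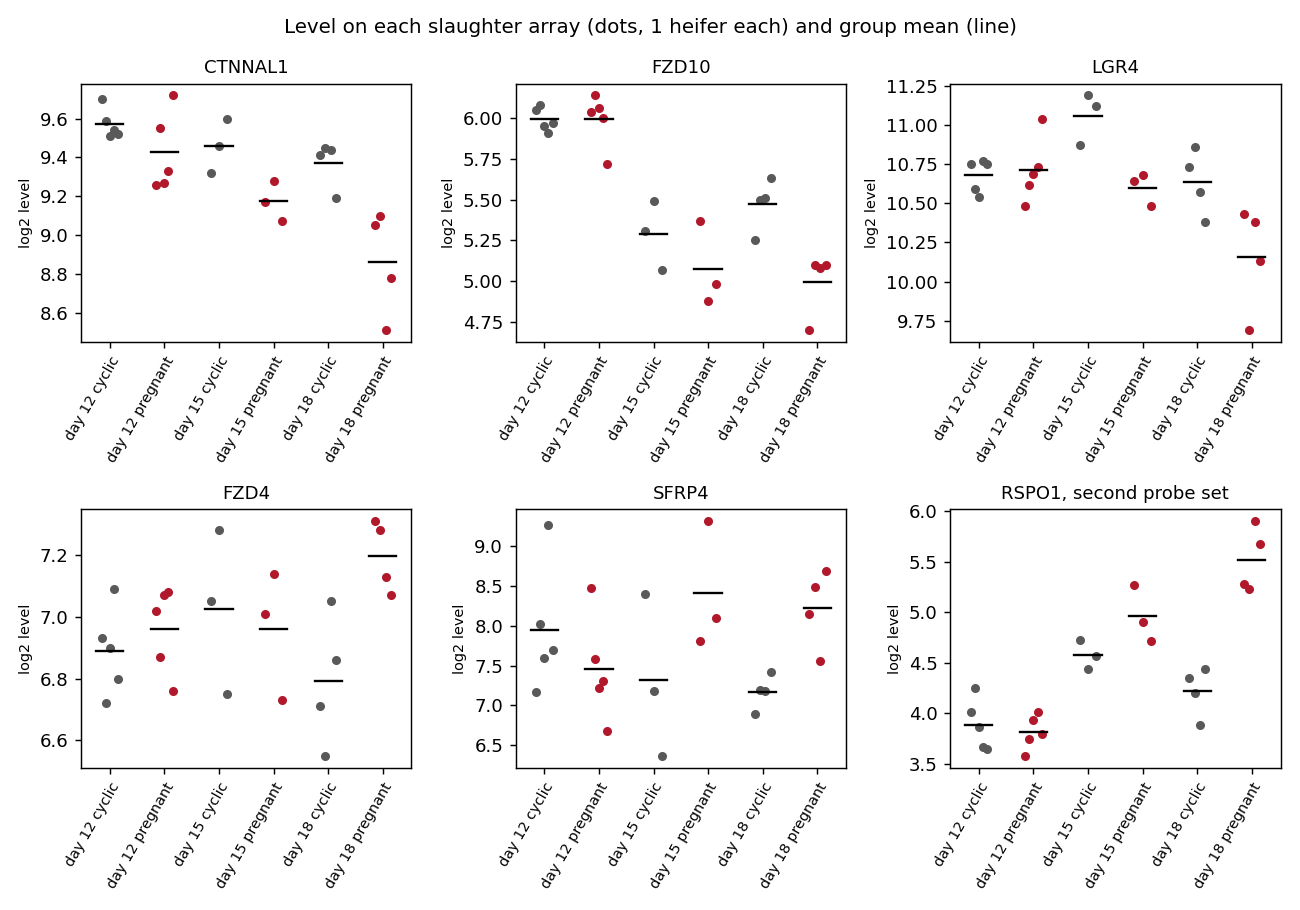
Levels (log2, arrays at a common median) of 5 Wnt genes and the second RSPO1 probe set in the 24 slaughter samples, by day and by cyclic (grey) or pregnant (red) state; each dot is 1 heifer and each line a group mean. On day 18 the pregnant dots of CTNNAL1 and FZD10 lie below every cyclic dot, those of FZD4, SFRP4 and the second RSPO1 probe set above, and those of LGR4 meet the cyclic ones at 10.38.

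The remaining 26 genes did not pass on day 18, and 6 of the 10 genes with an unadjusted p under 0.05 were among them. SFRP4, a secreted inhibitor of stromal cells, had the largest difference between group means. Its levels were 8.15, 8.48, 7.56 and 8.68 in pregnant against 6.89, 7.2, 7.18 and 7.42 in cyclic animals. These groups did not overlap, yet SFRP4 varied most of all 30 genes between animals of a group (pooled SD 0.69), and the difference of 1.04 ± 0.446 had an adjusted p of 0.11. WNT2B, a canonical ligand, was measured at 6.56, 6.44, 6.21 and 6.24 in pregnant and 6.94, 6.7, 6.96 and 7.01 in cyclic animals, again without overlap, and its difference of -0.54 ± 0.204 had an adjusted p of 0.0692.

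The other 4 with an unadjusted p under 0.05, DKK3, DVL2, FZD3 and AXIN1, differed less. DKK3, a Dickkopf relative whose effect on the pathway is not settled, gave 0.33 ± 0.139 (adjusted p = 0.101), DVL2 -0.2 ± 0.0791 (0.0859), and FZD3, which lies at percentile 1.0 of all probe sets by mean level, -0.23 ± 0.0864 (0.0664). AXIN1, the scaffold of the destruction complex, gave -0.14 ± 0.0624 (0.14). AXIN2, the negative regulator that beta-catenin itself induces, gave -0.19 ± 0.121 (adjusted p = 0.324), LEF1 -0.04 ± 0.121 (0.879), TCF7 -0.08 ± 0.116 (0.709) and TCF7L2 0.11 ± 0.125 (0.614). WNT11 (0.14 ± 0.12), RSPO3 (-0.09 ± 0.176), SFRP1 (0.07 ± 0.188) and SFRP2 (-0.17 ± 0.291) also stayed short of the threshold.

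RSPO1, a ligand of LGR4, was read differently by its 2 probe sets. The brighter one, which stood for the gene, did not pass (0.1, adjusted p = 0.506). The dimmer one had levels of 5.28, 5.23, 5.9 and 5.67 in pregnant and 4.35, 4.2, 3.88 and 4.44 in cyclic animals, far apart, with a difference of 1.3 ± 0.162 (limma, adjusted p = 5.11e-06), and every pregnant animal was higher. It kept that call without any 1 animal (1.17 to 1.4). Both probe sets are dim, with means of 4.81 and 5.04 over all arrays, and which of them reports the RSPO1 transcript was not tested.

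Beside these genes, markers of other cell types moved on day 18: 5 of 10 endothelial markers were lower in pregnant animals (mean level 7.64 to 8.29 in cyclic, 7.38 to 7.62 in pregnant) and 5 of 7 macrophage and dendritic cell markers were higher (7.5 to 7.75 against 8.51 to 9). Of all probe sets, 9.39% were higher and 9.23% lower on that day. Of 11 epithelial markers 3 were higher and 1 lower, and of 10 stromal markers 1 was higher and 2 lower. The single calls and the 2 stromal ones lie near the shares of all probe sets. None of 8 smooth muscle, 10 T and NK cell, 4 erythrocyte or 7 trophoblast markers passed in limma (1, 1, 0 and 0 at an unadjusted p under 0.05). The part of these shifts in the Wnt differences was not tested, and in whole endometrium fewer cells of a type and less RNA per cell cannot be told apart.

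Outside the family, 45 other genes of the pathway were read on the array, and 10 of them passed on day 18, 1 higher and 9 lower, where 18.6% of all probe sets passed, 9.39% higher and 9.23% lower. The 4 largest were all lower in pregnant animals. CXXC5, an inhibitor of Dishevelled, fell by 0.77 (SE 0.0949, adjusted p = 4.96e-06). RNF43, the ligase that removes Frizzled receptors, fell by 0.61 (SE 0.152, 0.00659), CELSR2, a planar polarity cadherin, by 0.58 (SE 0.125, 0.00217), and PLCB1, a phospholipase of the calcium branch, by 0.56 (SE 0.158, 0.0162). All but PLCB1 kept their call without any 1 animal; PLCB1 lost it without cyclic heifer 3 (adjusted p = 0.0522). APC, TLE5, PPP3CA, CTBP2 and WLS, the carrier that brings Wnt proteins to the cell surface, were the other genes that fell, by 0.29 to 0.51, and NFATC1 rose (0.43). CTBP2 and NFATC1 each lost the call without pregnant heifer 2, and NFATC1 also without pregnant heifer 3.

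Of 16 measured genes that have been reported elsewhere as beta-catenin targets, 3 passed on day 18, where 18.6% of all probe sets did. PLAUR, the urokinase receptor, was higher by 0.92 ± 0.126 (adjusted p = 1.89e-05) and FOSL1, an AP-1 subunit, by 0.42 ± 0.107 (0.00767). MSX1, a homeobox factor of the uterine epithelium, was lower by -0.54 ± 0.147 (0.0132), a call lost without pregnant heifer 2 (adjusted p up to 0.0669). The median over the 16 was 0.02, so they did not move together.

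**Figure D2:**
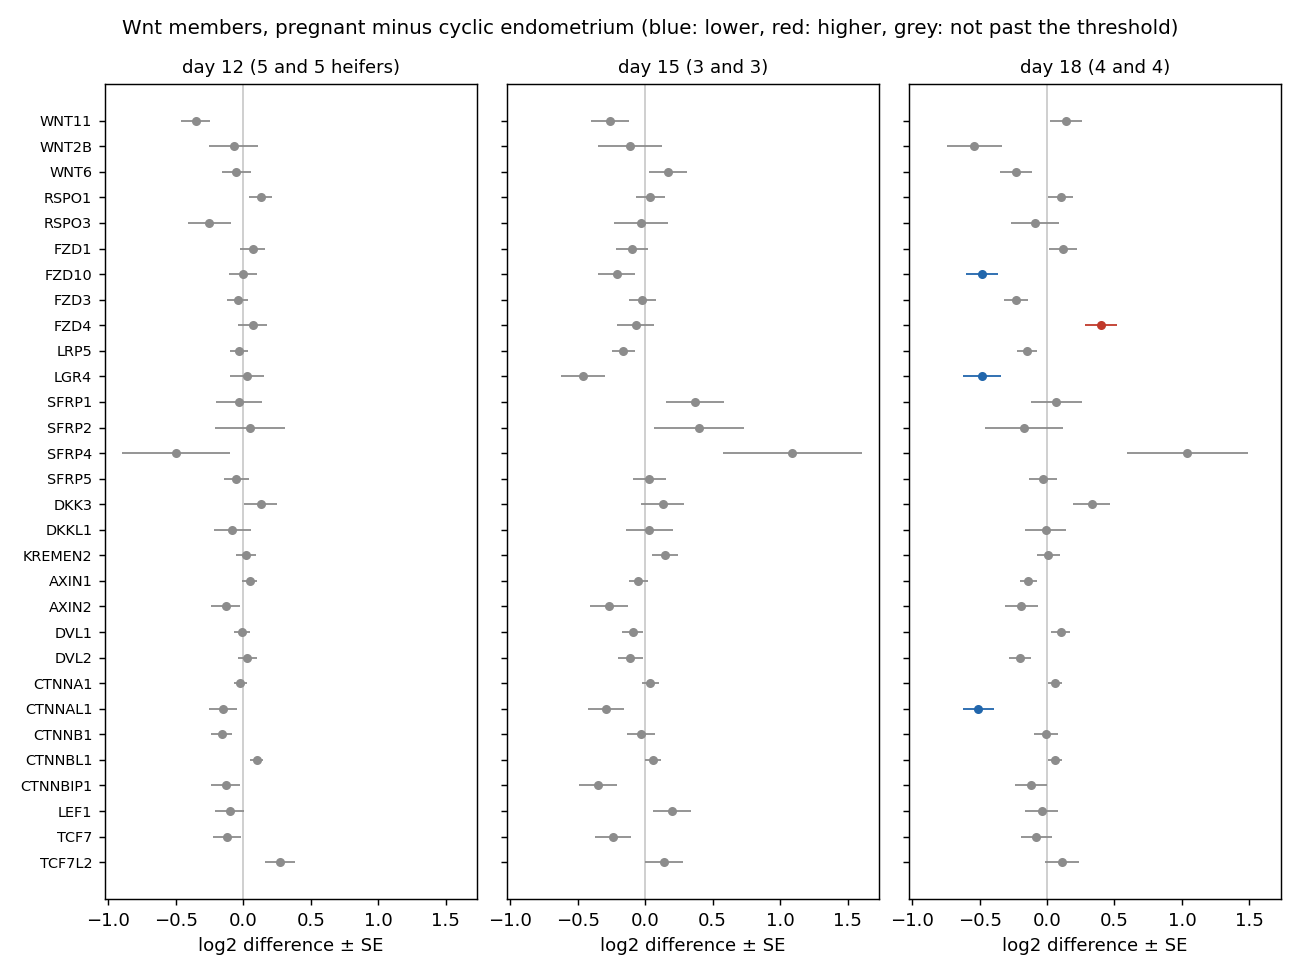
Difference in log2 level, pregnant minus cyclic, of the 30 Wnt genes on days 12, 15 and 18 (points) with its SE (bars), from limma; colour marks the genes past an adjusted p of 0.05. Days 12 and 15 hold no coloured point and day 18 holds 4, and the SFRP4 bars are the widest on every day.

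On day 15 none of the 30 genes passed in limma, where 5.04% of all probe sets did (2.92% higher, 2.12% lower), and 4 had an unadjusted p under 0.05. LGR4 already stood at 10.64, 10.68 and 10.48 in the 3 pregnant animals and at 10.87, 11.19 and 11.12 in the 3 cyclic ones, without overlap (-0.46 ± 0.16, adjusted p = 0.105). Its second probe set passed at -0.64 ± 0.171 (adjusted p = 0.032) and lost that call without any of 5 of the 6 animals, cyclic heifer 1 being the exception (adjusted p up to 0.148). CTNNBIP1, which binds beta-catenin and keeps it from TCF factors, gave -0.35 ± 0.139 (adjusted p = 0.168), and CTNNAL1 -0.29 ± 0.134 (0.252).

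SFRP4 was again the most variable gene on day 15, at 7.81, 9.31 and 8.1 in pregnant and 8.4, 7.18 and 6.37 in cyclic animals. The groups overlapped, and the difference of 1.09 ± 0.515 had an adjusted p of 0.259. For the intracellular genes the intervals were narrower: CTNNB1 gave -0.03 (95% interval -0.24 to 0.18), AXIN2 -0.27 (-0.56 to 0.02) and LEF1 0.2 (-0.09 to 0.49). None of the 45 other pathway genes passed in limma, and 12 had an unadjusted p under 0.05. Of the 16 targets FOSL1 alone did (0.56 ± 0.123, adjusted p = 0.00925), and its call was lost without cyclic heifer 2 or pregnant heifer 3 (adjusted p up to 0.0717). Beside these values, 3 of 11 epithelial and 1 of 10 stromal markers were higher and 2 of 10 endothelial markers lower in pregnant animals. Of all probe sets, 2.92% were higher and 2.12% lower, and the part of these markers was not tested.

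On day 12 none of the 30 genes passed in limma, and 0.00416% of all probe sets did, a single one. WNT11, a ligand of the non-canonical branch, had the lowest unadjusted p (0.00383), one of 3 genes under 0.05. It was measured at 7.34, 7.62, 7.53, 7.88 and 7.73 in the 5 pregnant animals and 7.79, 8.03, 7.81, 7.98 and 8.23 in the 5 cyclic ones. Pregnant heifer 4 alone reached into the cyclic range, and the difference of -0.35 ± 0.108 had an adjusted p of 0.529. TCF7L2 gave 0.27 ± 0.111 (adjusted p = 0.694) and CTNNB1 -0.16 ± 0.0788 (0.751). None of the 45 other pathway genes and none of the 16 targets passed in limma (3 and 1 at an unadjusted p under 0.05).

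Whether the pregnancy difference itself changed between days was tested with an interaction term. From day 12 to day 15, 0 of 30 genes passed (limma; 1.99% of all probe sets, 1.43% higher and 0.562% lower), with 2 under an unadjusted p of 0.05: SFRP4, whose pregnancy difference moved by 1.59 ± 0.651 (adjusted p = 0.247), and LGR4, by -0.49 ± 0.203 (0.252). From day 15 to day 18, 0 of 30 passed (0.187% of all probe sets, 0.150% higher and 0.0375% lower), and 3 had an unadjusted p under 0.05, FZD4 (0.47 ± 0.184, adjusted p = 0.389), WNT11 (0.4 ± 0.184, 0.511) and WNT6 (-0.4 ± 0.185, 0.514). The calls of FZD10, FZD4, LGR4 and CTNNAL1 on day 18 are therefore not shown to be differences from day 15.

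Interferon alpha changed no Wnt gene past the threshold. In limma 0 of 30 passed for IFNA minus placebo (0.804% of all probe sets did, 0.766% higher and 0.0375% lower), 0 for IFNA minus PBS (0.845%, 0.700% higher and 0.146% lower) and 0 for placebo minus PBS (0). At an unadjusted p under 0.05 the counts were 0, 2 and 0. The median differences of the 30 genes were -0.07, -0.08 and -0.02.

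The 2 genes were CTNNAL1 and TCF7, an HMG-box factor that binds beta-catenin. CTNNAL1 had levels of 10.09, 9.86 and 9.69 in the IFNA animals, 10.02, 10.5 and 10.09 in the placebo animals and 10.23, 10.31 and 10.49 in the PBS animals. The IFNA animals lay below every PBS animal and overlapped the placebo animals, with differences of -0.46 ± 0.159 from PBS (adjusted p = 0.358) and -0.33 ± 0.159 from placebo (0.629). TCF7 was measured at 8.68, 8.46 and 8.94 with IFNA, 8.62, 9.1 and 8.73 with placebo and 9.09, 9.13 and 9.09 with PBS, a difference of -0.41 ± 0.157 from PBS (adjusted p = 0.436).

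The biopsies bound the size of an interferon effect unevenly. For CTNNB1 the 95% interval of IFNA minus placebo was -0.34 to 0.16, for LEF1 -0.36 to 0.27, for AXIN2 -0.53 to 0.17, for LGR4 -0.27 to 0.55 and for FZD10 -0.48 to 0.55. For WNT11 it was -0.61 to 0.4, for TCF7L2 -0.46 to 0.28, for DKK3 -0.73 to 0.45, for SFRP1 -0.59 to 0.76 and for SFRP2 -1.33 to 0.42. It was widest for SFRP4 (-1.41 to 1.98) and RSPO3 (-2.14 to 1.13).

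RSPO3, a secreted R-spondin, varied most between animals beside SFRP4. It stood at 7.01, 8.26 and 6.48 with IFNA, 7.43, 9.27 and 6.57 with placebo, and 6.56, 6.42 and 7.96 with PBS. In every group 1 animal lay more than a log2 unit from another. SFRP4 ran from 6.6 to 9.44 within the IFNA group alone. The pooled SD between animals of a group was 1.07 for RSPO3 and 1.11 for SFRP4 in the biopsies, against 0.27 and 0.69 in the slaughter samples, and the GAPDH difference of the biopsies spanned 1.03 to 3.87.

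**Figure D3:**
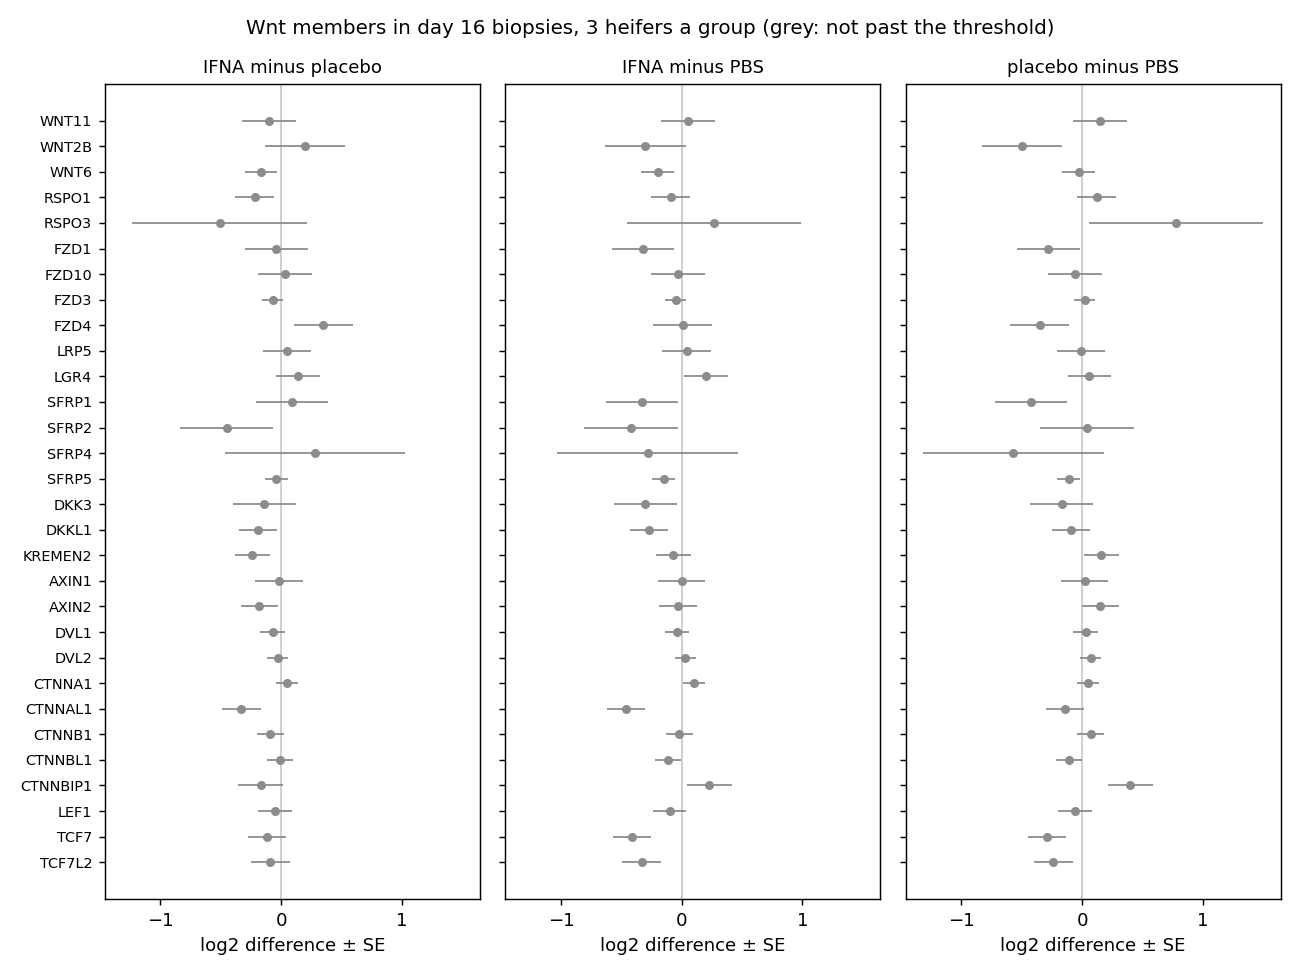
Difference in log2 level of the 30 Wnt genes between the 3 biopsy groups (points; 3 heifers a group) with its SE (bars), from limma. Every point is grey because none passed an adjusted p of 0.05, and the bars of RSPO3 and SFRP4 are several times as wide as those of CTNNB1 or DVL2.

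Among the 45 other pathway genes and the 16 targets, none passed in the 3 biopsy comparisons in limma. At an unadjusted p under 0.05 there were 3 and 5 for IFNA minus placebo, 5 and 5 for IFNA minus PBS, and 1 and 2 for placebo minus PBS. Of 7 macrophage and dendritic cell markers, 3 were higher with IFNA than with placebo (mean level 8.65 to 9.15 against 7.51 to 8.13) and 2 than with PBS. Of 10 endothelial markers, 2 were lower with IFNA than with PBS (7.48 to 7.91 against 8.24 to 8.35) and 0 than with placebo. Of all probe sets, 0.766% were higher and 0.0375% lower against placebo, and 0.700% and 0.146% against PBS. The median of 10 stromal markers was -0.38 against placebo and -0.57 against PBS, with none past the threshold in limma and 5 and 6 at an unadjusted p under 0.05. The part of these markers in the Wnt values was not tested.

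The interferon difference was set against the pregnancy difference in a single fit over all 33 arrays. Against day 15, 0 of 30 genes passed (limma; 0.396% of all probe sets, 0.137% higher and 0.258% lower) and 2 had an unadjusted p under 0.05, LGR4 (0.6 ± 0.24, adjusted p = 0.287) and KREMEN2 (-0.38 ± 0.157, 0.292). Against day 18, 0 of 30 passed (1.22%, 0.279% higher and 0.941% lower), with LGR4 (0.62 ± 0.225, adjusted p = 0.197) and FZD10 (0.51 ± 0.227, 0.323) under 0.05 before adjustment. Both were the receptors that were lower in pregnant animals of day 18 (-0.48 each). That difference is itself a part of this contrast, so their place in it is not a separate observation. In the biopsies IFNA minus placebo was 0.14 ± 0.181 for LGR4 and 0.03 ± 0.226 for FZD10. When arrays were weighted by their quality these 2 passed, LGR4 at 0.81 ± 0.227 (adjusted p = 0.0302) and FZD10 at 0.76 ± 0.224 (0.0396). Of the other pathway genes, WLS (0.44 ± 0.112, adjusted p = 0.0459) and RHOA (-0.32 ± 0.0817, 0.0474) differed between the interferon and the day 18 pregnancy effects. WLS lost its call without any of 8 of the 14 animals (IFNA heifers 1 and 3, placebo heifer 1, cyclic heifers 1, 2 and 3, pregnant heifers 2 and 4; adjusted p up to 0.134). RHOA lost it without any of 10 (IFNA heifers 1 and 2, placebo heifers 1 and 2, cyclic heifers 2, 3 and 4, pregnant heifers 1, 2 and 4; up to 0.12).

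More Wnt genes passed between days than with pregnancy. From day 12 to day 15, 19 of the 30 (63.3%) passed in cyclic animals, 4 higher and 15 lower, where 58.6% of all probe sets passed, 39.4% higher and 19.1% lower. In pregnant animals 18 passed (60%), 4 higher and 14 lower, where 60.3% did, 39.0% higher and 21.3% lower. The median difference of the 30 genes was -0.33 in cyclic and -0.23 in pregnant animals, against 0.14 and 0.11 over all probe sets. The cyclic and pregnant animals are different heifers on the same sets of arrays: 14 genes were lower in both (of 15 and of 14), 3 were higher in both (of 4 and of 4), and none moved in opposite directions. How many of all probe sets moved alike in both states was not counted, so this agreement is not shown to be particular to these genes. The GAPDH difference moved with this step, from 0.43 on day 12 to -0.09 on day 15, and its part in these calls was not tested.

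WNT11 and WNT2B fell furthest. WNT11 stood at 7.79, 8.03, 7.81, 7.98 and 8.23 in the cyclic animals of day 12, at 6.78, 6.81 and 6.78 on day 15 and at 6.58, 6.67, 6.58 and 6.75 on day 18. In pregnant animals it stood at 7.34, 7.62, 7.53, 7.88 and 7.73, then at 6.77, 6.58 and 6.25, then at 6.92, 6.55, 6.95 and 6.73. Every animal of day 12 lay above every animal of days 15 and 18, and the step from day 12 to 15 was -1.18 ± 0.124 in cyclic (adjusted p = 1.01e-07) and -1.09 ± 0.124 in pregnant animals (2.41e-07).

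WNT2B fell from 8.12 ± 0.21 (SD, n = 5) to 7.01 ± 0.33 (n = 3) in cyclic and from 8.05 ± 0.46 to 6.91 ± 0.41 in pregnant animals, steps of -1.11 ± 0.211 and -1.14 ± 0.211 (SE; adjusted p = 0.000134 and 8.59e-05). Its second probe set was likewise high on day 12 (6.67 ± 0.17 in cyclic animals) and low on day 15 (5.63 ± 0.06), and the dimmest of its 3 probe sets was called the other way (0.58 and 0.63). The mean over the 3 still passed, at -0.52 and -0.48. WNT6, dim at percentile 19.6 of all probe sets, fell by 0.54 in cyclic (adjusted p = 0.000934) and 0.32 in pregnant animals (0.0316).

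RSPO3 went from 5.53 ± 0.42 to 4.65 ± 0.08 in cyclic and from 5.27 ± 0.12 to 4.62 ± 0.03 in pregnant animals, steps of -0.88 ± 0.182 (adjusted p = 0.000303) and -0.66 ± 0.182 (0.00375). By day 15 it was below the lower quartile of all probe sets.

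**Figure D4:**
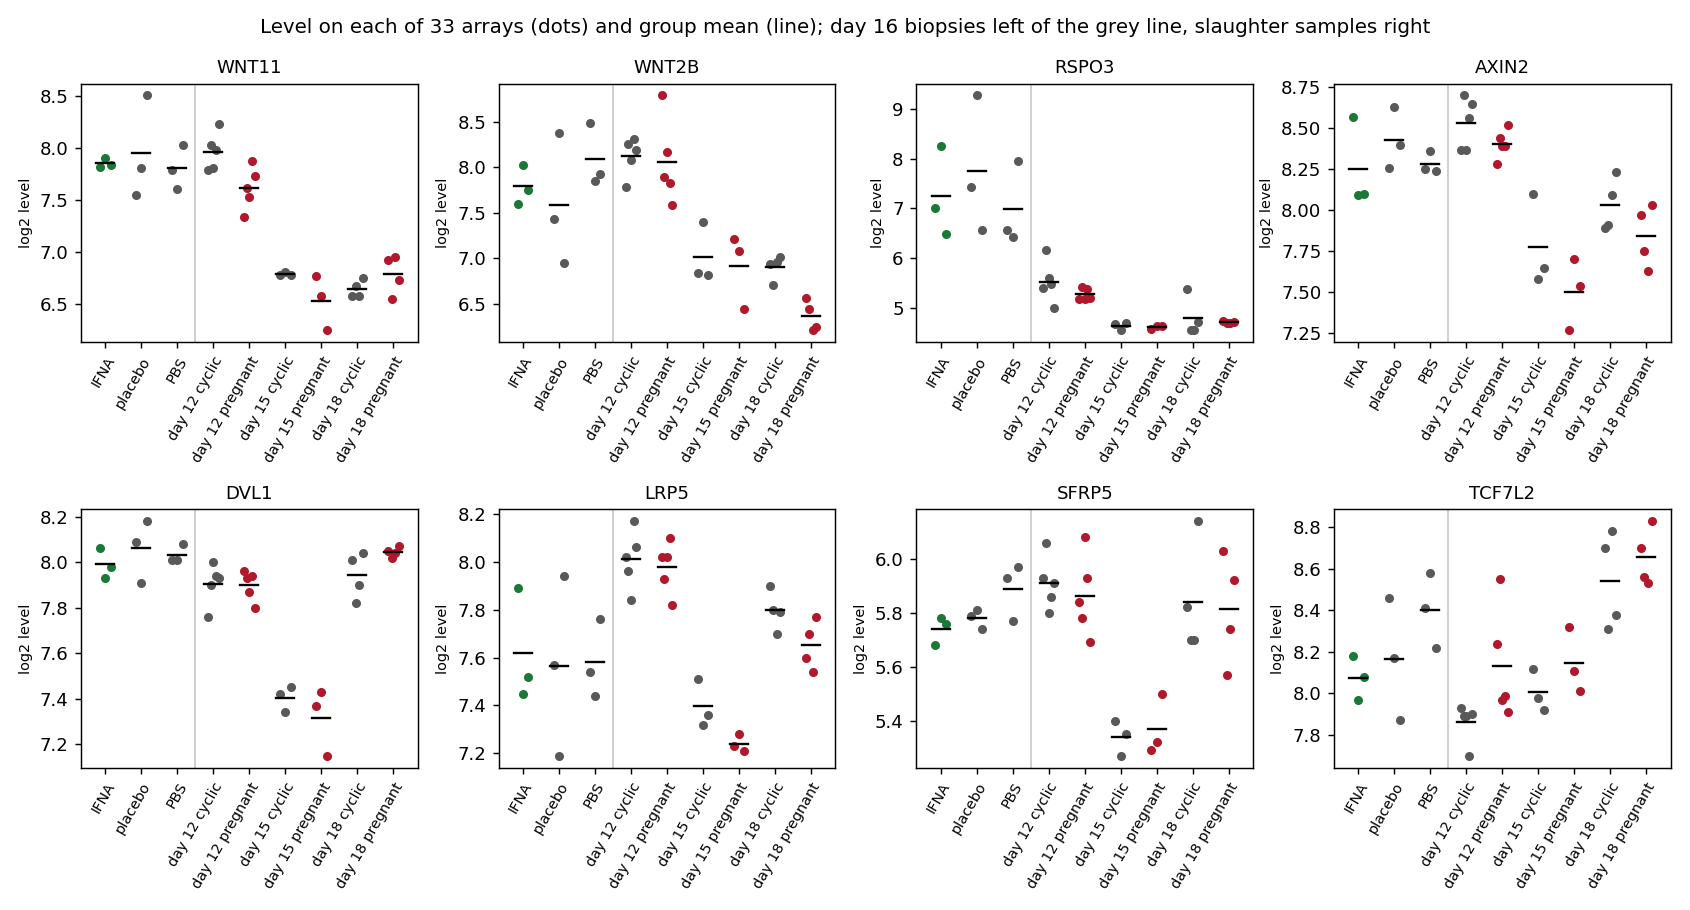
Levels (log2, arrays at a common median) of 8 Wnt genes in all 9 groups, biopsies left of the grey line and slaughter samples right; each dot is 1 heifer (green IFNA, red pregnant, grey the others) and each line a group mean. WNT11, WNT2B and RSPO3 are high on day 12 and low on days 15 and 18, DVL1, LRP5 and SFRP5 dip on day 15, and TCF7L2 is highest in the slaughter samples of day 18.

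Receptors fell as well. FZD10, dim at percentile 32.2 of all probe sets, went from 5.99 ± 0.07 to 5.29 ± 0.21 in cyclic animals (-0.7 ± 0.122, adjusted p = 5.11e-05) and from 5.99 ± 0.16 to 5.07 ± 0.26 in pregnant ones (-0.92 ± 0.122, 1.88e-06). LRP5, the co-receptor of canonical signalling, went from 8.01 ± 0.12 to 7.39 ± 0.1 (-0.61 ± 0.0773, adjusted p = 1.03e-06) and from 7.98 ± 0.11 to 7.24 ± 0.04 (-0.74 ± 0.0773, 7.31e-08). A second LRP5 probe set, dim at a mean of 3.89, was called in the opposite direction in both (0.47 and 0.55), and with the mean over both probe sets the calls were lost (-0.07, adjusted p = 0.468, and -0.09, 0.336). LGR4, on its brighter probe set, rose in cyclic animals only past the threshold, by 0.38 ± 0.143 (limma, adjusted p = 0.0278). That call was lost without cyclic heifer 2 or 3 of day 12 or of day 15 (adjusted p up to 0.116), and with the mean over its probe sets (0.23, 0.169). The second LGR4 probe set gave 0.09 in cyclic animals (limma, adjusted p = 0.629) and was lower in pregnant ones (-0.49, 0.0085).

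Among the inhibitors, SFRP5 fell by 0.57 in cyclic and 0.49 in pregnant animals (adjusted p = 0.000135 and 0.000542). KREMEN2, a Dickkopf receptor that clears LRP co-receptors, rose from 4.35 ± 0.09 to 4.96 ± 0.22 in cyclic (0.62 ± 0.0861, adjusted p = 3.77e-06) and from 4.36 ± 0.1 to 5.11 ± 0.06 in pregnant animals (0.75 ± 0.0861, 2.66e-07), at percentile 21.9 of all probe sets by mean level. SFRP1 rose in pregnant animals by 0.49 ± 0.194 (adjusted p = 0.0336), a call lost without heifer 4 or 5 of day 12 or heifer 1 or 3 of day 15 (up to 0.183). SFRP2, SFRP4 and DKK3 did not pass in either state, although a dimmer DKK3 probe set was lower in both (-0.39, adjusted p = 0.012, and -0.46, 0.00374).

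Inside the cell, AXIN2 stood at 8.37, 8.7, 8.37, 8.56 and 8.65 in cyclic animals of day 12 and 8.1, 7.58 and 7.65 on day 15, and at 8.28, 8.44, 8.39, 8.39 and 8.52 and then 7.27, 7.7 and 7.54 in pregnant animals. Neither state overlapped between the days. AXIN2 fell by 0.75 (SE 0.125, adjusted p = 2.92e-05) in cyclic and 0.9 (SE 0.125, 2.97e-06) in pregnant animals. DVL1, a Dishevelled protein, went from 7.76, 7.9, 8, 7.94 and 7.93 to 7.42, 7.34 and 7.45 in cyclic animals, a step of -0.5 ± 0.0693 (adjusted p = 3.18e-06), and pregnant animals gave -0.58 ± 0.0693 (4.02e-07).

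DVL2, AXIN1, RSPO1 and CTNNBIP1 were lower in both states too, by 0.24 to 0.58. CTNNBIP1 lost the call in cyclic animals without heifer 1 or 2 of day 15 (adjusted p up to 0.0619), and the second RSPO1 probe set was called the other way in both states (0.69 and 1.15). CTNNB1 fell by 0.35 in cyclic (SE 0.0909, adjusted p = 0.00241) and 0.21 in pregnant animals (SE 0.0909, 0.0498), and the latter call was lost without heifer 2, 3, 4 or 5 of day 12 or heifer 2 or 3 of day 15 (-0.38 to -0.07). CTNNBL1, a splicing-related gene that shares only the catenin name, rose by 0.6 and 0.56, and CTNNA1, alpha-catenin of the cell junction, by 0.22 and 0.28.

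LEF1 was lower by -0.34 ± 0.125 in cyclic animals (adjusted p = 0.0251), lost without heifer 5 of day 12 or heifer 1 or 2 of day 15 (up to 0.154), and gave -0.03 in pregnant ones. WNT6 in pregnant animals lost its call without heifer 1 or 3 of day 12 or heifer 1 or 2 of day 15 (adjusted p up to 0.125). TCF7 and TCF7L2 did not pass at this step in either state, although a dimmer TCF7 probe set was lower in both (-0.63, adjusted p = 0.000685, and -0.66, 0.000425).

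From day 15 to day 18, 12 of 30 genes (40%) passed in cyclic animals, 5 higher and 7 lower, where 49.5% of all probe sets passed, 16.7% higher and 32.8% lower. In pregnant animals 13 passed (43.3%), 6 higher and 7 lower, where 52.2% did, 18.5% higher and 33.7% lower. Higher in both states were DVL1, LRP5, SFRP5 and TCF7L2, and lower in both were CTNNA1, CTNNBL1, FZD3, LEF1 and LGR4.

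Several genes that had fallen by day 15 were higher again on day 18. In cyclic animals 4 genes were lower and then higher (DVL1, DVL2, LRP5 and SFRP5), and in pregnant animals 5 (AXIN2, DVL1, LRP5, RSPO1 and SFRP5). The share of all probe sets that were lower and then higher was not counted. In pregnant animals the second RSPO1 probe set was higher at both steps (1.15 and 0.56). DVL1 reached 8.01, 7.82, 7.9 and 8.04 in cyclic and 8.05, 8.02, 8.04 and 8.07 in pregnant animals of day 18, above all 6 animals of day 15, with steps of 0.54 ± 0.0725 (adjusted p = 2.31e-06) and 0.73 ± 0.0725 (3.17e-08). LRP5 rose by 0.4 and 0.41 on its brighter probe set (adjusted p = 0.000284 and 0.000206), while the dimmer one was lower (-0.44, 0.00658, and -0.47, 0.00439), so its direction depends on the probe set. SFRP5 rose by 0.5 and 0.44 (0.000956 and 0.00251). Since both steps share the day 15 arrays, a value peculiar to that set would show in both.

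TCF7L2, a transcription factor of the canonical branch, rose to its highest slaughter level on day 18, from 8 ± 0.1 to 8.54 ± 0.23 in cyclic (0.54 ± 0.135, adjusted p = 0.0022) and from 8.14 ± 0.16 to 8.65 ± 0.14 in pregnant animals (0.51 ± 0.135, 0.00322). LEF1 fell from 8.81 ± 0.21 to 8.44 ± 0.18 (-0.37 ± 0.131, 0.0224) and from 9.01 ± 0.21 to 8.4 ± 0.17 (-0.61 ± 0.131, 0.000483). The cyclic LEF1 call was lost without heifer 3 of day 15 or heifer 2 or 4 of day 18 (adjusted p up to 0.148). LGR4 fell by 0.42 and 0.44 (adjusted p = 0.023 and 0.017); the call was lost in cyclic animals without heifer 2 or 3 of day 15 or 4 of day 18, and in pregnant ones without heifer 1 or 2 of day 15 or 2 of day 18 (up to 0.0973). With the mean over its probe sets LGR4 did not pass in either state (-0.33 and -0.36).

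The other calls of this step were smaller or less steady. FZD3 fell by 0.88 and 1.1, but its probe set is among the dimmest on the array. CTNNBL1 fell by 0.48 in both states and CTNNA1 by 0.38 and 0.36. In cyclic animals CTNNBIP1 fell by 0.51 (adjusted p = 0.00242), a call lost with the mean over its probe sets (0.252), and FZD1 by 0.39 (0.00506, lost without heifer 1 of day 15 at 0.057), and DVL2 rose by 0.27 (0.0116). In pregnant animals WNT2B fell by 0.55 (0.0423, lost without heifer 1 or 2 of day 15 or 2, 3 or 4 of day 18) and CTNNAL1 by 0.31 (0.0405, lost without heifer 1 or 2 of day 15 or 3 or 4 of day 18). AXIN2 rose by 0.34 (0.0328, lost without heifer 1 or 3 of day 15 or 1 or 4 of day 18) and RSPO1 by 0.31 (0.0142, lost without heifer 3 of day 15 or 4 of day 18).

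The calls from day 15 to 18 depended on how arrays were scaled, and those from day 12 to 15 less so. With all 33 arrays quantile normalised, the step from day 12 to 15 gave 4 higher and 16 lower in cyclic animals (26.8% and 23.9% of all probe sets) and 3 and 16 in pregnant ones (26.9% and 26.6%). All 4 higher and 15 lower cyclic calls, and 3 of 4 higher and 14 of 14 lower pregnant calls, had the same direction and passed on both scales. FZD3 alone was called lower under quantile normalisation in both states (-0.48 and -0.47) with a positive difference at the common median (0.09 and 0.12). With the deposited values and no shift, 2 were higher and 22 lower (12.3% and 45.4% of all probe sets; median difference of all probe sets -0.21) in cyclic and 2 and 24 (14.4% and 49.2%; -0.25) in pregnant animals.

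For the step from day 15 to 18, quantile normalisation gave 7 higher and 2 lower in cyclic (20.5% and 19.4% of all probe sets) and 8 and 4 in pregnant animals (22.4% and 21.4%). The deposited values gave 27 higher and 0 lower in cyclic (79.5% and 4.31%; median of all probe sets 0.65) and 23 and 1 in pregnant animals (78.2% and 4.73%; 0.66). On both the median and the quantile scale, 5 genes were higher and 2 lower in cyclic animals and 5 and 3 in pregnant ones. On the probe sets used, the rises of DVL1, LRP5, SFRP5 and TCF7L2 were called on all 3 scales in both states, whereas FZD3 turned from -0.88 to 0.19 in cyclic animals and from -1.1 to 0.05 in pregnant ones under quantile normalisation.

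**Figure D5:**
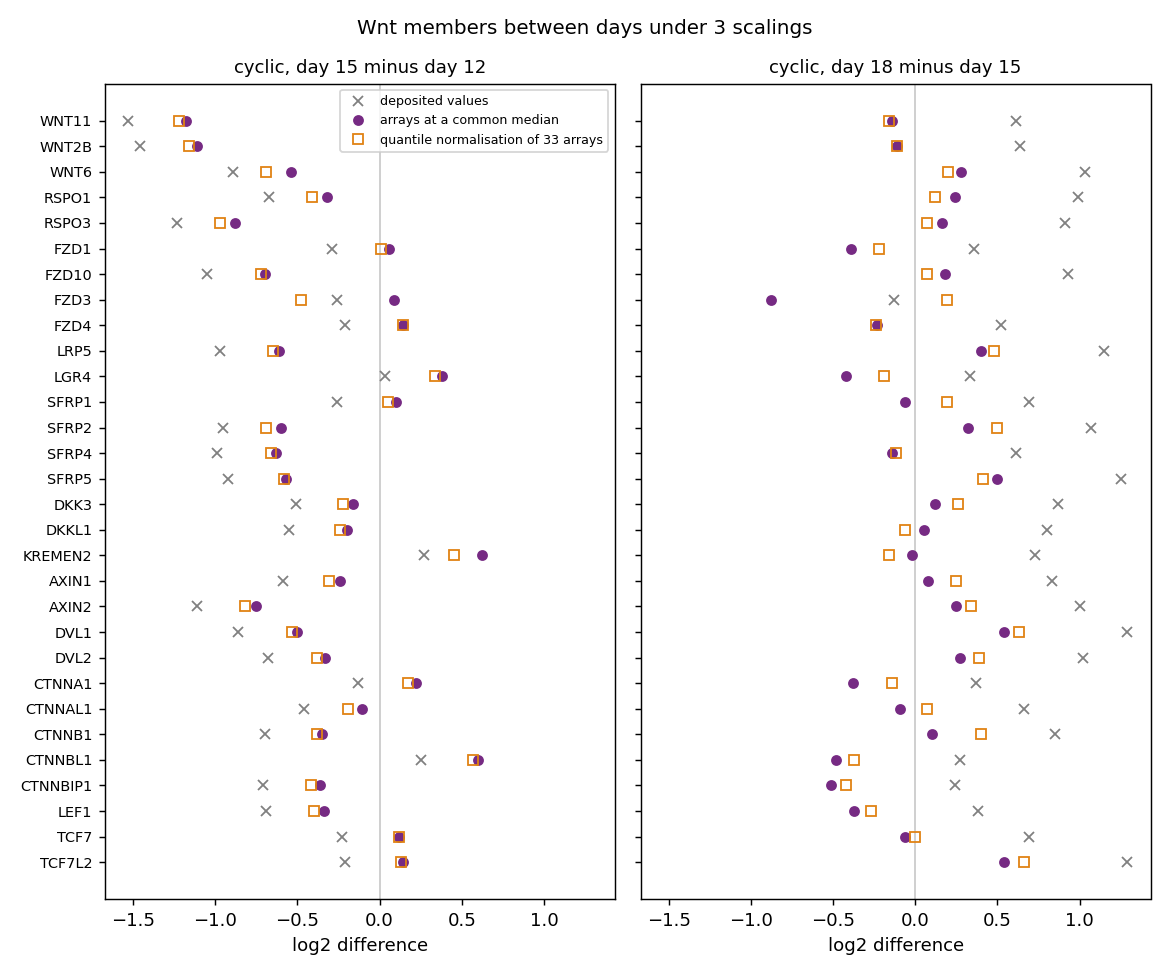
Difference in log2 level of the 30 Wnt genes in cyclic animals from day 12 to 15 and from day 15 to 18 on 3 scales: deposited values (crosses), arrays at a common median (filled circles) and quantile normalisation of 33 arrays (open squares). From day 12 to 15 the circles and squares lie close together except for FZD3 (0.09 against -0.48), and from day 15 to 18 the crosses lie to the right, by 0.65 at the median of all probe sets.

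Of the 45 other pathway genes, 27 passed from day 12 to 15 in cyclic animals (7 higher, 20 lower) and 27 in pregnant ones (7 and 20), where 58.6% and 60.3% of all probe sets did. From day 15 to 18 the counts were 7 and 14 in cyclic and 6 and 17 in pregnant animals, where 49.5% and 52.2% of all probe sets passed. These totals lie near the shares over all probe sets, but at the early step the directions differed on the common median scale. From day 12 to 15, 39.4% of all probe sets were higher and 19.1% lower in cyclic animals, and 39.0% and 21.3% in pregnant ones. On this scale most probe sets called there rose, whereas most of the listed genes called fell. Under quantile normalisation 26.8% of all probe sets were higher and 23.9% lower in cyclic animals, and 26.9% and 26.6% in pregnant ones. With the deposited values most called probe sets fell (45.4% and 49.2% lower). The contrast in direction is therefore tied to the common median, the only scale on which the listed genes are given. From day 15 to 18 the shares were 16.7% higher and 32.8% lower in cyclic animals, and 18.5% and 33.7% in pregnant ones. The largest early changes were the fall of ROR2, a Wnt receptor of the non-canonical branch (-0.98 and -1.12), the rise of SOST (sclerostin), an antagonist of LRP co-receptors (1.02 and 1.18), the fall of APC in cyclic animals (-0.81), and, in pregnant animals, the rise of SOSTDC1 (1.37) and the fall of RNF43 (-0.95). PLCB1 fell by 0.77 in cyclic animals. The largest late changes in cyclic animals were those of the kinase ROCK2 (-1.09), PRKCA (0.65), SMARCA4 (-0.63) and GPC3 (-0.54). In pregnant animals they were SOSTDC1 (-2.04), ROCK2 (-1.31), GPC3 (-0.57) and CSNK1G1 (0.55).

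Of the 16 targets, 4 were higher and 6 lower from day 12 to 15 in cyclic and 5 and 5 in pregnant animals. Of all probe sets, 58.6% passed there in cyclic animals (39.4% higher, 19.1% lower) and 60.3% in pregnant ones (39.0% and 21.3%). NRCAM, a cell adhesion molecule, fell by 2.14 and 1.94, MSX1 by 1.15 and 1.37, and ASCL2, a progenitor factor, rose by 1.02 and 1.24. CLDN1 fell by 1.24 in cyclic animals and CCND1 by 0.87 in pregnant ones. From day 15 to 18 the counts were 3 and 3 in cyclic and 4 and 6 in pregnant animals, led by TCF4 (-0.87 and -0.86), CD44 (0.86 and 0.83) and ASCL2 (-0.63 and -0.87), with PPARD (-0.52) in cyclic and BIRC5 (0.85) in pregnant animals. At this later step 49.5% of all probe sets passed in cyclic animals (16.7% higher, 32.8% lower) and 52.2% in pregnant ones (18.5% and 33.7%).

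Cell type markers were called between days as well, as were many of all probe sets. From day 12 to 15, 39.4% of all probe sets were higher and 19.1% lower in cyclic animals, and 39.0% and 21.3% in pregnant ones. From day 15 to 18 the shares were 16.7% and 32.8% in cyclic animals, and 18.5% and 33.7% in pregnant ones. Several of the marker counts lie near these shares and are not read as shifts of a cell type. From day 12 to 15, 4 of 10 stromal and 3 of 8 smooth muscle markers were lower in cyclic animals and 5 of 10 and 6 of 8 in pregnant ones (1 higher in each list and state), and 4 of 10 T and NK cell markers were higher in both. Of 7 trophoblast markers 5 were higher and 1 lower in both states, and 4 of 4 erythrocyte markers were higher in cyclic and 2 in pregnant animals. The cyclic animals had been sham-inseminated with sperm-free supernatant, so trophoblast markers are not read as trophoblast content in them. Macrophage and dendritic cell markers were higher in 2 of 7 (1 lower) and 4 of 7, and endothelial markers lower in 2 of 10 (1 higher) and 4 of 10. Of 11 epithelial markers 4 and 5 were higher and 2 lower in each state. From day 15 to 18, stromal markers were lower (4 of 10 in cyclic, 8 of 10 in pregnant animals), and 3 of 10 T and NK cell markers were higher in each state (1 lower in cyclic animals). Macrophage and dendritic cell markers were lower in 2 of 7 in cyclic and higher in 3 of 7 in pregnant animals, and 2 of 7 trophoblast markers were higher and 3 lower in both. In cyclic and pregnant animals, 2 and 1 of 11 epithelial markers were higher and 2 and 3 lower, and 1 of 10 endothelial markers was higher in each and 2 and 3 were lower. Of 8 smooth muscle markers 1 and 2 were higher and 1 lower, and of 4 erythrocyte markers 1 was higher and 1 lower in each. Their part in the Wnt steps was not tested, and day, horn position and set of arrays cannot be told apart in any of these steps.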

How the data were processed

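Total RNA of 33 heifers was hybridised to Affymetrix bovine genome arrays, 1 array per heifer. The deposited table holds log2 values per probe set with 2 decimals, from 1.89 to 14.2, made by the authors with RMA in the affy package per the submitters' processing notes; versions are not given in the sources used here. That the 4 sets of arrays were normalised separately was inferred from their distributions (largest SD of a sorted value 0.333 over all arrays, 0.0511 to 0.0751 within a set). Every array was shifted to a common median. Of 24128 probe sets, 112 controls were left out; of the 24016 tested, 13292 had 1 gene symbol, 86 several and 10638 none in the platform annotation, and 13263 matched RefSeq by gene identifier, with 0 symbols changed.

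Limma 3.58.1 in R 4.3.3 (lmFit, eBayes, 1 mean per group, two-sided) was run on the 9 biopsy arrays, the 24 slaughter arrays, or all 33 for interferon against pregnancy, with Benjamini-Hochberg adjustment; the scripts were tested on simulated data. No dim probe set was filtered out, so all 30 genes entered every test. Alternatives were the deposited values, quantile normalisation, bright probe sets only, the mean over a gene's probe sets, array weights, a replicate block, smaller fits, a GAPDH covariate for the biopsies, and leaving out each animal. The number of arrays limits the precision.

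Named with values are all genes past the threshold for treatment, pregnancy or their interactions, up to 8 rises and 8 falls per step between days, and 20 genes listed by name (12 measured); the 4 largest changes are named from the lists of other pathway genes (45 of 81 measured) and targets (16 of 28). The second RSPO1 probe set, and the other pathway genes called on day 18 beyond the 4 largest, were named after their values were seen. Genes, lists and tests were chosen with earlier results of these data known. Sequences are not printed here.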

Additional observations from a re-analysis of the deposited data

Results flagged for a closer look

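In the groups of 4 or 5 animals, 120 combinations of gene and group were screened for an animal far from its group by Dixon's criterion, and 8 stood out; chance alone gives about 1 in 20. On day 12, WNT6 was lowest in cyclic heifer 1 (4.65, next 5.1), TCF7L2 was lowest in cyclic heifer 4 (7.7, next 7.89), and DKK3 was highest in pregnant heifer 4 (9.49, next 9.13). On day 18, FZD1 was highest in cyclic heifer 3 (10.02, next 9.88) and in pregnant heifer 2 (10.15, next 9.99), and TCF7 was highest in cyclic heifer 3 (8, next 7.72). Also on day 18, CTNNAL1 was lowest in cyclic heifer 4 (9.19, next 9.41) and FZD10 was lowest in pregnant heifer 1 (4.7, next 5.08). The last 2 belong to genes called on that day, and both calls held without the animal in question (CTNNAL1 -0.57, FZD10 -0.38). No Wnt gene passed an interaction test.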

How the results depend on the processing

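On days 12 and 15, in the biopsies and for the interactions, no Wnt gene passed under any alternative run, except that array weights gave 2 for interferon minus the day 18 pregnancy effect. For day 18 the count of 4 became 5 with deposited values, 3 with bright probe sets only and 5 with the day's arrays alone. The fit on bright probe sets left FZD10 out, so it could not test that call. Without each animal in turn the counts were 2 to 4 for day 18 (2 without cyclic heifer 2 or pregnant heifer 2), 16 to 19 and 10 to 12 for the cyclic steps, 16 to 19 and 9 to 13 for the pregnant steps, and 0 to 0 elsewhere. The deposited values gave 27 for cyclic and 24 for pregnant animals from day 15 to 18; the shift of all probe sets by about 0.65 comes with that scale. They also turned genes around: CTNNA1 from day 12 to 15 (-0.13 cyclic, -0.08 pregnant), and from day 15 to 18 CTNNA1 (0.37, 0.39), CTNNBL1 (0.27, 0.27), LEF1 (0.38, 0.13), LGR4 (0.33, 0.31), CTNNBIP1 (0.24) and FZD1 (0.36) in cyclic, and CTNNAL1 (0.44) and WNT2B (0.2) in pregnant animals. Quantile normalisation turned FZD3 (0.19 cyclic, 0.05 pregnant). The mean over all probe sets turned RSPO1 from day 12 to 15 (0.18, 0.37) and LRP5 from day 15 to 18 (-0.02, -0.03), and took FZD4 on day 18 to 0.13 (adjusted p = 0.331). It also ended the calls of LRP5 from day 12 to 15 (-0.07, -0.09), of LGR4 in the cyclic step from day 12 to 15 (0.23) and in both steps from day 15 to 18 (-0.33, -0.36), and of CTNNBIP1 in the cyclic step from day 15 to 18 (-0.15), and took WNT2B from day 12 to 15 to -0.52 and -0.48. Over all named genes and alternatives, 784 values kept direction and call, 81 lost the call and 20 turned.

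Same-numbered animals were not paired: their deviations from the group means correlated by -0.34 to 0.37 in the biopsies, 0.03 to 0.2 on day 12, 0.02 to 0.15 on day 15 and -0.22 to 0.08 on day 18. With the replicate number as a block, day 18 again gave 4, and the pregnant steps 15 in place of 18 and 10 in place of 13.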

Other observations

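The biopsies and the slaughter samples stood apart for some Wnt genes, which no comparison of the report uses, since treatment, sampling and set of arrays cannot be told apart there. For 6 of the 30 genes all 9 biopsies lay above all 24 slaughter samples: CTNNA1 (11.46 to 11.65 against 10.79 to 11.3), CTNNB1 (12 to 12.37 against 11.14 to 11.85), DKK3 (9.63 to 10.73 against 8.56 to 9.49), FZD1 (10.55 to 11.61 against 9.86 to 10.54), RSPO3 (6.42 to 9.27 against 4.56 to 6.17) and TCF7 (8.46 to 9.13 against 7.3 to 8.07). WNT6 lay below (3.52 to 4 against 4.35 to 5.28), and the other 23 overlapped. How many of all probe sets separated in this way was not counted. The separation is therefore not shown to be a trait of these genes.

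The second RSPO1 probe set, which separated pregnant from cyclic animals on day 18, ran from 4.62 to 7.49 in the biopsies and overlapped the pregnant animals of day 18 (5.23 to 5.9). It stood at 6.12, 7.05 and 5.59 with IFNA, 5.64, 7.49 and 4.66 with placebo, and 5.65, 4.62 and 5.87 with PBS. Its highest biopsies, placebo heifer 2 and IFNA heifer 2, were also those with the highest RSPO3 levels (9.27 and 8.26). Over the slaughter groups its means were 3.89 and 3.81 on day 12, 4.57 and 4.96 on day 15, and 4.22 and 5.52 on day 18 (cyclic and pregnant).

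Different probe sets of a Wnt gene were called in opposite directions 8 times, always between days and never within one: 4 times for LRP5 and 2 times each for WNT2B and RSPO1. In 9 cases a second probe set gave the same call, in 7 the gene's brightest probe set alone was called, and in 16 another one alone.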
